A study of Mus musculus with 2 samples.

Results

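The 10 genes described here encode the small RNA machinery of the mouse egg: the Argonautes Ago1, Ago2, Ago3 and Ago4, the nucleases Dicer1 and Drosha, the Drosha partner Dgcr8, and the germline PIWI pathway genes Piwil2, Mael and Ddx4. They were chosen by symbol, matched to their Ensembl identifiers, and all 10 were found among the 36227 genes listed. Messenger RNA was measured in 2 libraries of ovulated oocytes arrested at metaphase II. The mothers were ICR females, with no engineered allele or drug named in the labels, that had become obese in standard cages by the age of 12 weeks. For the next 4 weeks the slimming mothers lived in enriched-environment cages and the control mothers stayed in normal cages, and the control label adds a standard diet. At 16 weeks, 3 oocytes were taken from each of 3 mice per group, and the 9 oocytes of a group were lysed together as 1 library. With 1 pooled library per group there is no replicate, so no difference below has a test, and all of them are differences between libraries rather than between treatments. A lower count from a pool cannot tell fewer contributing cells from less RNA per cell.

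Small RNAs guide Argonaute proteins to matching transcripts, which are then cut or silenced. MicroRNAs begin as hairpins that the microprocessor, made of Drosha and Dgcr8, cuts out of longer transcripts, and Dicer then trims them. In the mouse oocyte Dicer also makes small interfering RNAs from long double-stranded RNA without the microprocessor, and microRNA activity is known to be weak. PIWI proteins bind piRNAs, which are made without Dicer and hold transposons in check in germ cells. Dicer1 in mouse oocytes is known to be transcribed largely from a retrotransposon promoter inside the gene, which gives a shorter protein. A single count per gene does not separate that form from the full-length one.

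The sequences shown next bear on whether a read can be assigned to 1 of these genes. Ago1, Ago3 and Ago4 are neighbours on chromosome 4 (RefSeq, assembly GRCm38.p6), and Ago2 lies on chromosome 15. In GENCODE vM21 (GRCm38) the coding sequences of the 4 Argonautes were between 72.6% (Ago2 and Ago3) and 75.9% (Ago1 and Ago2) identical over aligned positions. The longest identical run joined Ago1 and Ago3, with 170 bases inside a coding exon of each gene, at chr4:126448778-126448947 in Ago1 and chr4:126363657-126363826 in Ago3, both on the minus strand. Capitals mark the 38 bases of it that Ago4 carries too.
Ago1 and Ago3: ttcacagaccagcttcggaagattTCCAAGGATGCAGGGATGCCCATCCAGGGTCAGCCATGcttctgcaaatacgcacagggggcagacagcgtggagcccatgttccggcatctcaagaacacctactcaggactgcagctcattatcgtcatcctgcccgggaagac
Ago2 shared no identical run longer than 17 bases with Ago3 or Ago4. Of all windows of 35 bases along the Ago3 transcript, 0.874% also occurred in a transcript of another gene, against 2.15% for Ago1, 6.24% for Ago2 and 0.0615% for Ago4. All 136 shared windows of Ago3 lay inside the run printed above. Neither the read length nor the handling of reads with several matches is given in these sources, so the number of reads these stretches could have moved was not tested.

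The Dgcr8 messenger itself carries microprocessor substrates, hairpins that Drosha is known to cut. A hairpin of this kind, mir-1306, is annotated inside the coding sequence of Dgcr8 at chr16:18284239-18284317 on the minus strand (RefSeq, GRCm38.p6), and its 79 bases were identical to the Dgcr8 transcript there. Capitals mark the 5p and the 3p mature microRNA.
mir-1306 hairpin: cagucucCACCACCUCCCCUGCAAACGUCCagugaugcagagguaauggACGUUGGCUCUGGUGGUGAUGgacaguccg
Mir1306 has a row of its own in the deposited table, with no count given in either library.

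The slimming library held 20947962 counts and the control library 20242289, and 3 counts, the most that a count of 0 allows, correspond to 0.143 and 0.148 CPM (each count scaled to a common library total). Oocyte markers summed to 105137 CPM in slimming oocytes and 105927 CPM in control oocytes, led by Gdf9 at 44674 and 45613 CPM and H1foo at 42278 and 44923 CPM. These 2 genes make up most of the sum, and single oocyte markers differed. Of the 11 that reached 10 CPM, 7 had a scaled log2 ratio above 0 and 4 below. Zp3, named after its values were seen, was at 2450 CPM in slimming oocytes and 1172 CPM in control oocytes. Cumulus and granulosa markers summed to 36.6 CPM in slimming oocytes and 45.4 CPM in control oocytes, nearly all Cyp19a1 (34.5 and 39.2 CPM). Of those 13 markers, 10 had no count in the slimming library and 6 had none in the control library, where Inha, named after its values were seen, had 63 counts. Immune markers summed to 25.8 and 45.9 CPM, of which H2-Aa (17.9 and 27.2 CPM) and Cd68 (3.77 and 5.09 CPM) had the highest means, with 8 of 12 at 0 in the slimming and 1 of 12 in the control library. Sperm and spermatid markers summed to 20.5 and 22.8 CPM, nearly all Prm2 (19.8 and 22.2 CPM). In that list 5 of 7 had no count in each library, and Odf1, also named after its values were seen, had 14 counts in slimming oocytes and 0 in control oocytes. The summed markers of each other cell type were lower for slimming. Single markers went the other way: 2 of the cumulus and granulosa list, 1 of the immune list and 1 of the sperm list. The part of other cells in the members' values was not tested.

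The 3 most abundant members, Dicer1, Ago3 and Ddx4, were at most 1.08-fold apart. Of the 10 genes, 8 were higher in the slimming library, Ago1 had the same count in both, and Dgcr8 was lower. A scaled log2 ratio above 0 was found for 47.5% of the 18017 genes with a count. It was found for 51.4% of the 5714 genes that reached 10 CPM in either library. Slimming was compared with control as a log2 ratio of counts with 0.5 added, scaled with TMM, a trimmed-mean library factor, and its 95% interval covers counting error alone. That interval excluded 0 for Ago2, Dicer1, Drosha and Piwil2, and included it for the other 6. Among all 18017 genes with a count the interval excluded 0 for 46.1%, and among those that reached 10 CPM in either library for 72.9%. Only 4 members (Dicer1, Ago3, Ddx4 and Drosha) reached 10 CPM in at least 1 library, and Drosha did so through the slimming library alone. None of these 4 was at least 2-fold apart, where 4.67% of the 5714 genes at that level were (2.73% on the higher and 1.94% on the lower side). Their median log2 ratio was 0.10, beside 0.015 over those 5714 genes. The other 6 members were below 10 CPM in both libraries, and 2 of them, Ago2 and Piwil2, were at least 2-fold higher in the slimming library. Among the 18017 genes with any count, 17.7% were 2-fold or more higher and 20.9% as far lower. Taken over all 10 members, the share of 2 on the higher side is near that of all genes. At the level of Ago2 (1 to 3 CPM) 18.4% of genes were as far higher, and at that of Piwil2 (0.3 to 1 CPM) 26.0%.

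**Figure D1:**
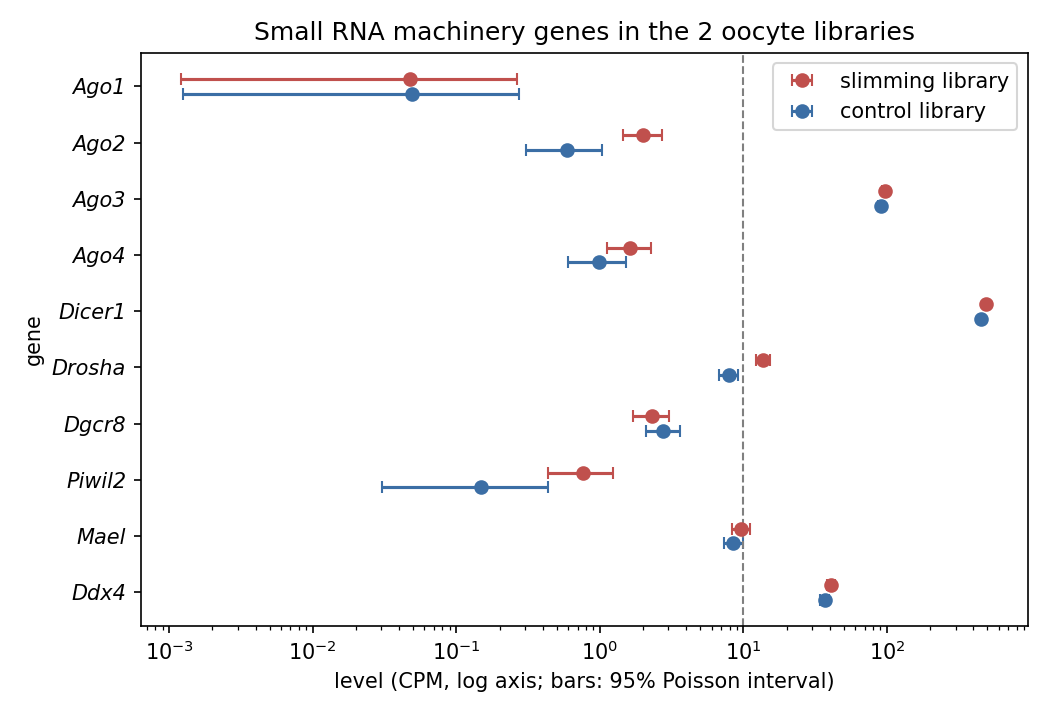
Level of each of the 10 genes (vertical axis) in CPM on a log axis, in the slimming (red) and the control (blue) library, each point 1 pooled library and each bar its 95% Poisson interval; the dashed line marks 10 CPM. Dicer1 lies near 489 and 453 CPM at one end and Ago1 at 1 count per library at the other, and the intervals of the 2 libraries are apart for Ago2, Drosha, Piwil2 and Dicer1.

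Among the Argonautes, the effector proteins that hold the small RNA, Ago3 made up nearly all of the summed level per kilobase of exon. Ago3 (ENSMUSG00000028842, chromosome 4) had 2031 counts in slimming oocytes and 1843 in control oocytes, or 97.0 and 91.0 CPM. The log2 ratio was 0.06 (95% counting interval -0.03 to 0.15), so the difference did not exceed counting error. Ago3 is annotated with a long 3′ untranslated region, of 12.7 kb in a transcript of 15.6 kb. Per kilobase of exon it made up 93.9% of the summed Argonaute level in slimming oocytes and 96.6% in control oocytes.

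Ago2, the Argonaute known for cutting its targets and for its role with small interfering RNAs in the oocyte, was nearly absent from the counts. Ago2 (ENSMUSG00000036698, chromosome 15) had 42 counts in slimming oocytes and 12 in control oocytes, or 2.00 CPM (95% Poisson interval 1.45 to 2.71) and 0.593 CPM (0.306 to 1.04). The slimming value was 3.21-fold higher, a log2 ratio of 1.68 (0.77 to 2.79). Per kilobase of exon, Ago2 held 2.29% of the summed Argonaute level in slimming oocytes and 0.743% in control oocytes. How far a low count here reflects little RNA was not tested. Among ribosomal protein genes, named after their values were seen, Rps18 had 1 count in each library. Rps15a had 10484 counts in slimming oocytes and 10436 in control oocytes.

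Some of the Ago2 sequence is shared with other genes. Chrac1, a gene on the opposite strand, overlaps the 3′ untranslated region of Ago2 by 219 bases and had 42 counts in slimming oocytes and 14 in control oocytes, a log2 ratio of 1.47 (0.60 to 2.49). Gm6088, a gene on the X chromosome, shares 519 of the 35-base windows of the Ago2 transcript, which fall within transcript positions 170 to 2683, and had 13 and 3 counts. Gm12904, which shares 52 such windows, has a row with no count given in either library. Gm5281 shares 97 such windows, and no count was matched to its symbol. Chrac1, Gm6088 and Gm12904 were named after their values were seen. The sources give neither the use of strand, which bears on Chrac1, nor the handling of reads with several matches. The handling of such reads bears on Gm6088, Gm5281 and Gm12904. Reads from the shared stretches thus cannot be told apart, and the Ago2 count is uncertain to that extent. The part of these stretches in the Ago2 difference was not tested.

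Ago4 and Ago1 also had few counts. Ago4 (ENSMUSG00000042500, chromosome 4), known for its high level in the male germline, had 34 counts in slimming oocytes and 20 in control oocytes, or 1.62 and 0.988 CPM. Its log2 ratio of 0.67 had an interval of -0.15 to 1.56, which included 0. Ago1 (ENSMUSG00000041530, chromosome 4), which lies between Ago3 and Ago4, had 1 count in each library, under the floor of 3 counts, so no ratio is given. The 4 Argonautes together had 2108 counts in slimming oocytes and 1876 in control oocytes.

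Dicer1 (ENSMUSG00000041415, chromosome 12), which cuts both microRNA precursors and long double-stranded RNA, was the most abundant of the 10 genes in each library. It had 10239 counts in slimming oocytes and 9163 in control oocytes, or 489 and 453 CPM. The log2 ratio was 0.08 (0.04 to 0.12), an interval above 0 but a 1.06-fold difference. Genes between 300 and 1000 CPM, the level of Dicer1, had a median absolute log2 ratio of 0.19. Dicer1 was thus closer to equal than most genes of its level.

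Of the microprocessor partners, Drosha was higher in the slimming library and Dgcr8 did not differ beyond counting error. Drosha (ENSMUSG00000022191, chromosome 15), the nuclease, had 287 counts in slimming oocytes and 160 in control oocytes, or 13.7 CPM (12.2 to 15.4) and 7.90 CPM (6.73 to 9.23). It was 1.69-fold higher in the slimming library, a log2 ratio of 0.76 (0.48 to 1.05). Dgcr8 (ENSMUSG00000022718, chromosome 16), the RNA-binding partner that holds the hairpin, had 48 counts in slimming oocytes and 56 in control oocytes, or 2.29 and 2.77 CPM. Its log2 ratio of -0.30 (-0.89 to 0.28) did not exceed counting error. The intervals of Drosha and Dgcr8 did not overlap, so their ratios differed by more than counting error; the difference has no replicate check.

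Dgcr8 is also the member with the most shared sequence. Of the 35-base windows of its transcript, 27.6% occur in a transcript of another gene, most of them in Trmt2a, a gene on the opposite strand that overlaps the last 825 bases of the Dgcr8 transcript. Trmt2a had 190 counts in slimming oocytes and 166 in control oocytes, with a log2 ratio of 0.11 (-0.19 to 0.42). With the use of strand not given, the Dgcr8 count is uncertain. For Drosha the shared part was 0.838% of windows, all with the annotated gene Gm47288.

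The PIWI pathway members were led in level by Ddx4, the vasa helicase of germ cells. Ddx4 (ENSMUSG00000021758, chromosome 13) had 853 counts in slimming oocytes and 744 in control oocytes, or 40.7 and 36.8 CPM, at a log2 ratio of 0.12 (-0.03 to 0.26). Mael (ENSMUSG00000040629, chromosome 1), a piRNA pathway protein that takes part in transposon silencing, had 201 and 172 counts, or 9.60 and 8.50 CPM, at a log2 ratio of 0.14 (-0.16 to 0.45). Neither difference exceeded counting error, and both genes had little or no sequence in common with other transcripts, with 0 of their 35-base windows shared.

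Piwil2 (ENSMUSG00000033644, chromosome 14), the PIWI protein itself, was close to the detection floor. It had 16 counts in slimming oocytes and 3 in control oocytes, or 0.764 CPM (0.437 to 1.24) and 0.148 CPM (0.0306 to 0.433). The ratio was 4.46-fold, a log2 ratio of 2.16 (0.53 to 4.76), and the control value equals the floor of 3 counts. None of its 35-base windows occurred in another gene's transcript.

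No member's difference exceeded the 90th percentile of genes of its level. For each member except Ago1, whose mean is under 0.3 CPM, the absolute log2 ratio was set beside those of all genes in its band of mean CPM. It was above the median of the band for 3 of 9 members, Ago2, Drosha and Piwil2, and above the 90th percentile for 0 of 9. Drosha came nearest, with an absolute log2 ratio of 0.76 against a 90th percentile of 0.82 among 2123 genes between 10 and 30 CPM. Its mean of 10.8 CPM is at the lower edge of that band, and the band from 3 to 10 CPM had a 90th percentile of 1.24. Ago2 had 1.68 against 2.22 among 2321 genes between 1 and 3 CPM, where 18.4% of genes were at least 2-fold higher in the slimming library. Piwil2 had 2.16 against 4.84 among 2484 genes between 0.3 and 1 CPM. In those bands most genes rest on few counts.

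**Figure D2:**
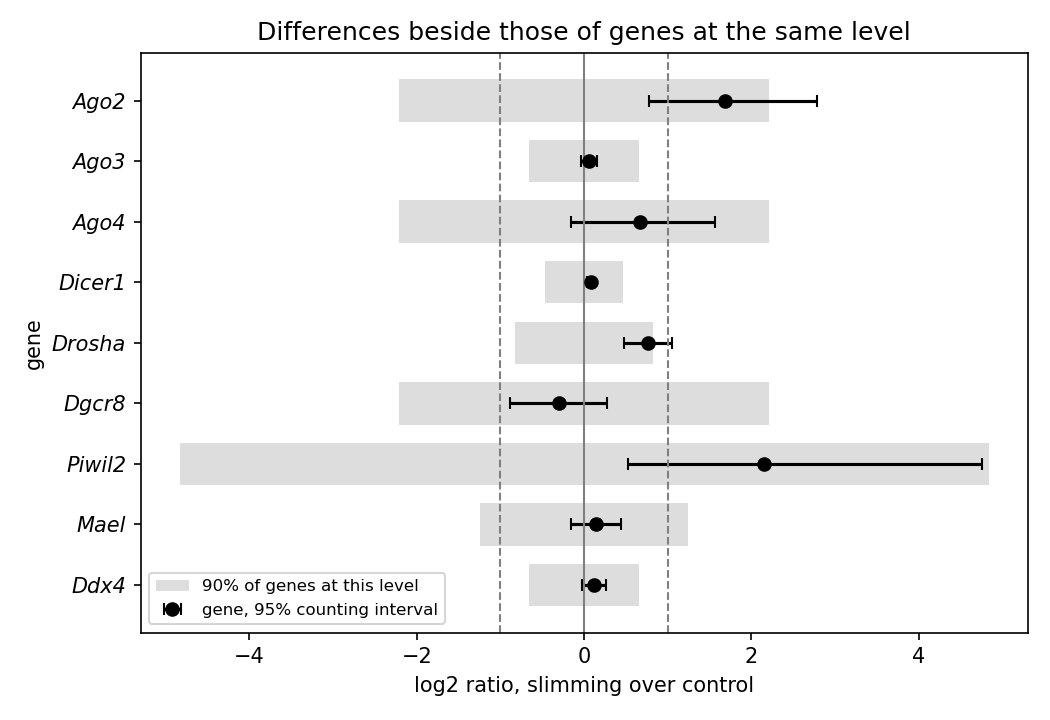
Log2 ratio of slimming over control for 9 of the genes (Ago1, with 1 count per library, is left out), with the 95% counting interval as a bar around each point; grey bands reach to plus and minus the 90th percentile of the absolute log2 ratio of all genes in the same band of mean CPM, and dashed lines mark 2-fold. Each of the 9 points lies inside its grey band, Drosha (0.76) closest to the edge at 0.82.

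In the authors' deposited table, which compares the reads of the 2 libraries, 3 of the 10 genes (Ago2, Dicer1 and Drosha) were marked at a p-value of 0.001. That table marks 30.4% of all genes with a count, so the members' share is near that of all genes. Its scaled log2 ratio was 1.76 for Ago2 with a p-value of 4.45e-05, 0.11 for Dicer1 with 9.11e-08 and 0.79 for Drosha with 1.24e-08. For Piwil2 the authors' deposited table gives a scaled log2 ratio of 2.37 and a p-value of 0.00227.

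Levels of the members were set in order per kilobase of exon, and they spanned more than the differences between libraries. In both libraries the order began with Dicer1, at 29.2 CPM per kb in slimming oocytes and 27.0 in control oocytes. Ddx4 followed at 13.5 and 12.2 CPM per kb, then Ago3 at 5.85 and 5.49, Mael at 5.54 and 4.90, and Drosha at 2.31 and 1.33. Ago3 and Mael did not differ beyond counting error in either library at this length. Dgcr8 was next at 0.298 and 0.359 CPM per kb, 7.75-fold below Drosha in slimming oocytes and 3.70-fold below it in control oocytes. The intervals of Dgcr8 and Ago4 overlapped in the slimming library. Ago4, Piwil2 and Ago2 lay between 0.143 and 0.234 CPM per kb in the slimming library, with overlapping intervals between neighbours. In the control library Ago4 stood at 0.142, Ago2 at 0.0423 and Piwil2 at 0.0280 CPM per kb, the last 2 with overlapping intervals. Ago1 was last in both libraries.

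Because the cDNA was primed at the poly(A) tail, full exon length may overstate how much of a long transcript was copied. With lengths capped at 3 kb, Ago3 moved ahead of Ddx4, at 32.3 against 13.6 CPM per kb in the slimming library and 30.3 against 12.3 in the control library. Ago3 was then also above Mael, whose length is under the cap and whose values stay at 5.54 and 4.90 CPM per kb. Dicer1 stayed first, at 163 and 151 CPM per kb. Drosha exceeded Dgcr8 by 5.98-fold in slimming oocytes and 2.86-fold in control oocytes with the cap, less than at full exon length. Ago3 exceeded Ago2 by 40.9-fold per kilobase of exon in slimming oocytes and by 130-fold in control oocytes, and by 48.4-fold and 154-fold with the cap.

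**Figure D3:**
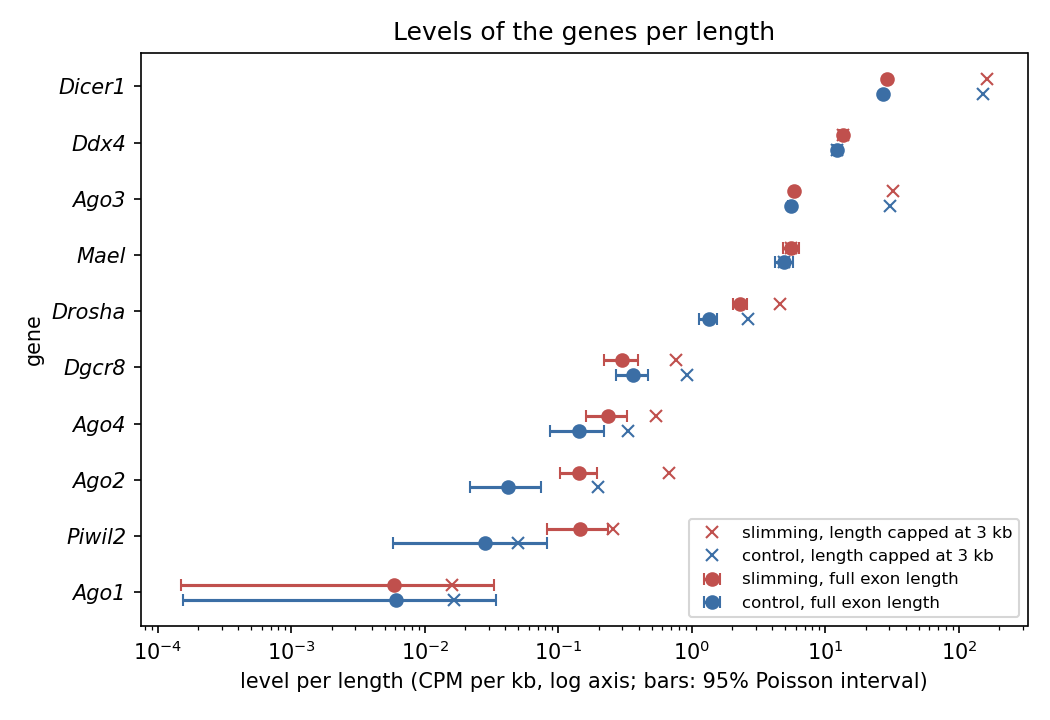
Level of each gene per length, in CPM per kb on a log axis, in the slimming (red) and control (blue) library; circles use the full exon length with 95% Poisson intervals and crosses a length capped at 3 kb. Dicer1 (29.2 and 27.0 CPM per kb) leads by either length, and Ago1, Ago2, Ago4, Piwil2 and Dgcr8 are each under 1 CPM per kb by either length.

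The partners of these genes were read from a list of 59 other genes in 3 roles, 57 of which had counts. At least 10 CPM in at least 1 library was reached by 30 of them. Of those 30, 0 were 2-fold or more higher for slimming and 2 were 2-fold or more lower, both in the piRNA pathway. Their median log2 ratio was -0.24, and 19 lay below 0 and 11 above, where 48.6% of the 5714 genes lay below 0. Among the 20 of them whose exons share no bases with another annotated gene, a split chosen after the data were seen, the median was 0.033. Some of the genes left out share only a few bases, and the cause of the turn was not tested. In the same split the members' median was 0.08, over 3 genes.

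In the microRNA processing list 10 of 15 genes reached 10 CPM, 7 below 0 and 3 above, with a median log2 ratio of -0.28. The highest CPM values, not scaled for length, were those of Ddx17 at 145 and 151 CPM and Ddx5 at 118 and 172 CPM (log2 ratio -0.57, -0.65 to -0.50), related helicases that work with the microprocessor. Khsrp, an RNA-binding protein that aids the processing of some microRNAs, was 1.77-fold lower at 85.4 against 148 CPM (log2 -0.82, -0.91 to -0.74). Adar, which edits double-stranded RNA, was 1.73-fold lower at 38.0 against 64.3 CPM. Tarbp2, a Dicer partner below 10 CPM in both libraries, had 39 counts in slimming oocytes and 13 in control oocytes (log2 1.47, 0.57 to 2.53). Of all genes with a count at that level, 23.8% were at least 2-fold apart with an interval that excluded 0. Lin28a and Lin28b, both known as brakes on let-7 and named after their values were seen, had opposite log2 ratios of -0.46 (-0.56 to -0.36) and 0.42 (0.28 to 0.55).

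In the silencing complex list 8 of 17 genes reached 10 CPM, 6 below 0 and 2 above, with a median of -0.28. Ipo8, an import factor that binds Argonautes, had the highest CPM of the list, not scaled for length, with 1189 CPM in slimming oocytes and 1911 CPM in control oocytes, 1.64-fold lower (log2 -0.72, -0.74 to -0.69). Limd1, a scaffold of the silencing complex, had 217 and 255 CPM, and Tsn, a subunit of the C3PO nuclease, 246 and 179 CPM (log2 0.43, 0.36 to 0.49). Tnrc6c, a member of the GW182 family that links Argonautes to deadenylation, was 1.72-fold lower at 14.9 against 25.1 CPM. Its relatives Tnrc6a and Tnrc6b, named after their values were seen, had log2 ratios of -0.48 (-0.60 to -0.37) and -0.22 (-0.33 to -0.11). Wtip, a relative of Limd1 below 10 CPM in both libraries, had 35 and 12 counts (log2 1.43, 0.48 to 2.54).

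In the piRNA pathway list 12 of 27 genes reached 10 CPM, 6 on each side of 0, with a median of -0.03. Tex19.1, a germ cell protein that restrains transposons, was 2.19-fold lower at 136 against 292 CPM (log2 -1.13, -1.20 to -1.07). Exd1, which takes part in piRNA production, was 3.41-fold lower at 6.49 against 21.7 CPM (log2 -1.77, -2.06 to -1.49), and reached 10 CPM through the control library alone. Piwil1, another PIWI protein, was at 97.7 CPM in slimming oocytes and 123 CPM in control oocytes (log2 -0.37, -0.45 to -0.28). Spocd1, known from piRNA-directed DNA methylation in the male germline, had 97.8 and 107 CPM.

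Below 10 CPM, 4 further piRNA pathway genes were at least 2-fold apart with intervals that excluded 0, as were 23.8% of all 12303 genes with a count at that level. Tdrd6, a Tudor protein of germ granules, had 62 counts in slimming oocytes and 15 in control oocytes (log2 1.93, 1.14 to 2.89). Henmt1, which methylates the ends of piRNAs, had 121 and 55 counts (log2 1.05, 0.59 to 1.54). Tex15, which acts in piRNA-directed silencing, had 10 and 22 counts (log2 -1.18, -2.46 to -0.08). Tdrd7, another Tudor protein, had 0 counts in slimming oocytes and 13 in control oocytes, and its counting interval put the log2 ratio at -1.69 or lower. The piRNA genes with few counts thus lay on both sides, and Piwil2 was on the same side as Tdrd6 and Henmt1.

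**Figure D4:**
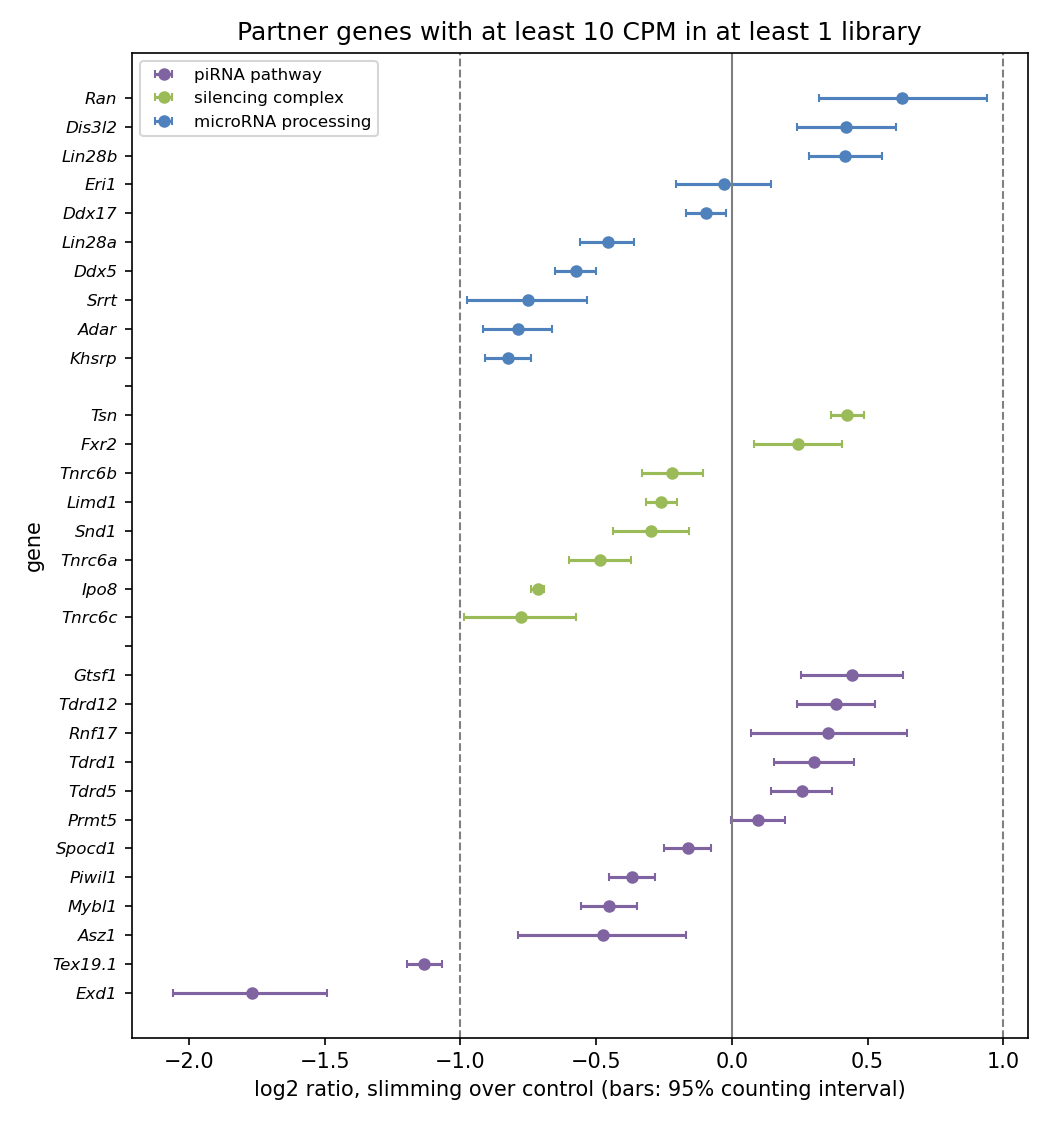
Log2 ratio of slimming over control for the 30 partner genes that reached 10 CPM in either library, with 95% counting intervals as bars, grouped as microRNA processing (blue), silencing complex (green) and piRNA pathway (purple); dashed lines mark 2-fold. Exd1 (-1.77) and Tex19.1 (-1.13) lie beyond the 2-fold line on the lower side, and no gene lies beyond it on the higher side.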

How the data were processed

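The authors deposited raw read counts per Ensembl gene for the slimming and the control library, per the file headers. The build was mm9, per the submitters' processing notes. No source used here gives the aligner, counter, strand use or read length. Per the labels' protocols, cDNA primed with a 24-base oligo(dT) was amplified for 18 and then 14 PCR cycles. No molecular identifiers are named, so intervals and floors cover counting error only. The log2 ratios, the standardised score, the p-value and the q-values were computed by the authors, as deposited, and compare the 2 libraries, per the file headers; the authors' scaled log2 ratio equals scaling by total count. The score and q-values were not used.

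Blank entries (18210 genes) were read as no count. Symbols, exon lengths (union of exons), exon overlap and shared windows came from GENCODE vM21 (GRCm38); 16913 of 18017 genes with counts matched a symbol. TMM factors (1.01 slimming, 0.989 control) came from edgeR 4.0.16 in R 4.3.3, and DESeq2 1.42.0 gave alternative size factors. Ratios use 0.5 added to each count; their intervals are exact Clopper-Pearson intervals of the slimming share, and those of CPM are exact Poisson intervals, both at 95%. Tables used Python 3.11.15, numpy 2.4.6, scipy 1.17.1, pandas 2.3.3 and matplotlib 3.10.9. The ratio and its interval were tested on simulated counts with Poisson noise alone, for genes with high counts only. That check does not cover members with few counts, such as Ago2 and Piwil2, or noise from amplification.

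The members, lists and thresholds were chosen with earlier results of these data known. All members were named. Partner genes were named if at least 2-fold apart with an interval excluding 0, if among the 3 with the highest mean CPM of their role, or if among the 2 largest absolute ratios of those at 10 CPM. Of each marker list the 2 with the highest mean CPM were named. With 2 libraries no likeness of pattern between genes could be measured. Alternatives changed the scaling, the added count, the expression minimum, the fold limit and the gene length.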

Additional observations from a re-analysis of the deposited data

How the results depend on the processing

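Under scaling by total count, DESeq2 size factors or 1 added to each count, all 30 single-gene log2 ratios of the members stayed inside their counting intervals. The scaling changes shift every gene by the same amount, too small to leave even the narrowest interval, that of Dicer1. That part of the result was thus fixed in advance. Ago1, for which no ratio is given above, is also counted. With a minimum of 1 CPM, 1 member, 7 partner genes and 1038 higher and 987 lower genes were at least 2-fold apart. With any count these were 2, 14, 3186 and 3774, against 0, 2, 156 and 111 at 10 CPM. At a limit of 1.5-fold they were 1, 8, 590 and 409. These settings admit more genes or smaller differences by construction. In the slimming library 5 of 10 members kept their place in the order of levels with lengths capped at 3 kb and 3 with no length scaling; in the control library 8 did under each. The partners' median log2 ratio turned from -0.24 to 0.033 without genes that share exon sequence, a setting added after the data were seen; the cause was not tested. No paired analysis was possible because each group was 1 library. Depth limits Ago1, Ago2, Ago4, Dgcr8 and Piwil2, each under 3 CPM in both libraries.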

Other observations

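The low Ago2 count is not alone among genes of small RNA control with few counts in these libraries. Named after their values were seen, Tut4, a terminal uridylyl transferase, had 1 count in slimming oocytes and 4 in control oocytes, and its relative Tut7 had 33 and 36. The Dicer partner Prkra had 3 and 2 counts, the helicase Ddx6 of stored messengers 9 and 12, and Mov10, a helicase bound to Argonautes, 2 and 0. No count was given for Gpat2 or Wdr77, both of the piRNA pathway. The table also lists 721 microRNA genes, of which 31 had a count, 2567 counts in slimming oocytes and 2446 in control oocytes. The libraries were primed at poly(A), so these counts do not measure mature microRNAs.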
